A study of Mus musculus with 69 samples.

Results

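The tight junction genes described here are 9 of the 20717 gene names in 3 count tables from cultured organoids of mouse prostate, small rounded bodies of epithelial cells. They were taken by name, in a choice made with earlier results of these data known. They are the claudin genes Cldn1, Cldn3, Cldn4, Cldn6 and Cldn7, the occludin gene Ocln, the junctional adhesion molecule gene F11r, and the scaffold genes Tjp1 and Tjp3. Bulk RNA sequencing of polyA RNA gave 69 libraries in 23 groups with n = 3 in each. The tables were tested one by one. In the TKOM table are TKOM organoids in suspension to day 30 and TKOM organoids in Matrigel, a basement membrane gel, whose day is not given. The PRAD and NEPC table holds 3 NEPC lines, numbered 1 to 3, then PRAD organoids on COMBO for 42 or 8 days, and PRAD organoids given YAPi_NOTCHi, ARi_YAPi, ARi_NOTCHi, NOTCHi, YAPi, ARi or the vehicle DMSO for 8 days. The genotype table holds organoids labelled TKO, PtP and WT, each with COMBO, YAPi_NOTCHi or DMSO for 8 days. The labels give the agents and genotypes by codes alone, do not say what COMBO contains or which alleles PtP, TKO, TKOM, PRAD and NEPC stand for, and do not state if the 3 libraries of a group came from separate cultures. The library codes in the labels name the NEPC lines TKONE with the number of the line, and do not explain that name. A p-value therefore measures no more than library-to-library spread, part or all of which may be technical. The series title places the work in the question of how extracellular matrix acts on lineage plasticity in prostate cancer through YAP and TEAD.

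Tight junctions seal the space between neighbouring epithelial cells near their apical side and separate apical from basolateral membrane. Claudins are membrane proteins that polymerise into the strands of the junction, and the claudins a cell makes set how tight and how ion-selective the seal is; occludin and the immunoglobulin-type protein encoded by F11r are further membrane components, and the zonula occludens scaffolds encoded by Tjp1 and Tjp3 tie the strands to actin. In prostate, as in other glands, claudins are expressed in both basal and luminal epithelium, and Cldn6 is best known from embryonic epithelia.

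The 9 genes lie on 8 chromosomes of the mm10 build. Cldn3 (chromosome 5, 134986214 to 134987472, plus strand) and Cldn4 (chromosome 5, 134945119 to 134946934, minus strand) are neighbours, 39.3 kb apart and on opposite strands. Short stretches of exon overlap a gene on the other strand, 40 bases of Cldn3 with Wbscr25 and 40 bases of Tjp3 with Apba3 in GENCODE M21, and whether the counting used strand is not given. The others are Cldn1 (chromosome 16, 26356642 to 26371841, minus strand), Cldn6 (chromosome 17, 23679249 to 23682446, plus strand), Cldn7 (chromosome 11, 69964779 to 69967885, plus strand), Ocln (chromosome 13, 100496507 to 100552718, minus strand), F11r (chromosome 1, 171437535 to 171464603, plus strand), Tjp1 (chromosome 7, 65296165 to 65527781, minus strand) and Tjp3 (chromosome 10, 81273207 to 81291581, minus strand).

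The 4 claudin genes that differ most between groups of the PRAD and NEPC table are shown by the 250 bases before their RefSeq start. The build is GRCm38, the same as mm10, and the bases are read 5′ to 3′ in the direction of transcription. Of these genes the adjacent Cldn3 and Cldn4 part ways in the NEPC lines and in TKOM suspension, as given below. All 9 genes matched RefSeq by symbol, with 12 windows, since 3 genes have a second one. Capitals mark letters of 3 motifs searched on both strands: GGAATG, the core that TEAD factors bind, TGGGAA, the core of RBPJ of the Notch pathway, and CAGGTG, an E-box bound by Snail and ZEB repressors. These motifs do not overlap in the windows shown.
Cldn4 (chr5:134946935-134947184, minus strand): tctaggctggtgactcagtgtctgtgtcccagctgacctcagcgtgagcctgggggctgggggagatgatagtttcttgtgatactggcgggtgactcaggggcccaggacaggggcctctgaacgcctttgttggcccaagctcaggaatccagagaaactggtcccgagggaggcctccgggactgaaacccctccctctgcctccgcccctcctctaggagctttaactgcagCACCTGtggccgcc
Cldn3 (chr5:134985964-134986213, plus strand): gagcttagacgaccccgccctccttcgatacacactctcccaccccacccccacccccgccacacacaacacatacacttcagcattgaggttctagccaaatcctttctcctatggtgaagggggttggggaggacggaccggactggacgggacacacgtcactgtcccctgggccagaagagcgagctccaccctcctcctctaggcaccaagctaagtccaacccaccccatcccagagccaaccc
Cldn7 (chr11:69964529-69964778, plus strand): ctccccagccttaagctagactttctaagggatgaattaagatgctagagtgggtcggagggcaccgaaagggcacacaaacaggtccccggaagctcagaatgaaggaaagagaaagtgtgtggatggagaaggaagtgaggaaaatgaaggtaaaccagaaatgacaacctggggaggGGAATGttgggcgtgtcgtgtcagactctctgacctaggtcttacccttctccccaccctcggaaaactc
Cldn1 (chr16:26371840-26372089, minus strand): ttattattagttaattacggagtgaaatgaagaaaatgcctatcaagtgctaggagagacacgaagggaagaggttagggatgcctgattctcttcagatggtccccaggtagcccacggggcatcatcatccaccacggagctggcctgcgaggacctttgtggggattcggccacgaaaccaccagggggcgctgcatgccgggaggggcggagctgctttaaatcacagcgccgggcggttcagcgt

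In these windows Cldn4 holds CAGGTG, on the other strand and so read as CACCTG, beginning 14 bases before the start, and Cldn7 holds GGAATG beginning 70 bases before it. Cldn3 and Cldn1 hold none of the 3. Cldn7 is one of the genes with a second RefSeq start, and the window before that start, not shown, holds no GGAATG but has TGGGAA and 2 matches of CAGGTG. Over all 32851 RefSeq windows of the same length, 12.6% hold GGAATG, 21.6% TGGGAA and 17.2% CAGGTG, so each motif is common. The matches describe the windows and show no binding.

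Library totals were 31460616 to 40458465 counts in the TKOM table, 22799838 to 77790816 in the PRAD and NEPC table and 18629462 to 92280307 in the genotype table, and levels are given as CPM, read counts scaled to library size, after TMM scaling, by library or as mean ± SD over n = 3. All libraries held epithelial RNA: the summed level of 7 markers was 1786 CPM or more in every library. The sum was lower in NEPC-3, at 2125 to 2269 CPM, than in PRAD organoids with DMSO, at 11661 to 12259 CPM. Epcam alone was 619.8 CPM in NEPC-3 and 570.1 in PRAD organoids with DMSO. The summed level of 8 neuroendocrine markers was 3788 to 3893 CPM in NEPC-1, 5064 to 5239 CPM in NEPC-2, 3339 to 3403 CPM in NEPC-3 and 5686 to 5825 CPM with COMBO at day 42, against 0.115 to 0.701 CPM with DMSO, where 3 of the 8 had no counts. The basal keratin gene Krt5 averaged 0.2604, 0 and 0.0202 CPM in the 3 NEPC lines, against 6680.5 with DMSO. Of 5 endothelial markers 2 are listed in the PRAD and NEPC table and of 6 immune markers 2, and they summed to at most 3.35 and 32.2 CPM in any library, with 2.22 and 41.04 in the genotype table. Of 4 glial markers 2 are listed in the first of these tables, and their sum of 130.2 to 283 CPM was nearly all Mbp. In bulk RNA, fewer cells of a type and less RNA per cell cannot be told apart, so a level here is an average over whatever cells each organoid culture held.

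Per kilobase of exon, Cldn4 was the most abundant of the 8 tested genes in PRAD organoids with DMSO at 362 ± 12.7 CPM per kb, followed by Cldn7 at 131 ± 5.42 and F11r at 109 ± 0.945, while Cldn1 was the lowest at 6.46 ± 0.352. The claudin levels varied most among the 12 groups of that table. The highest group mean was 1574 times the lowest for Cldn1, 685 times for Cldn4, 34.1 times for Cldn3 and 12.6 times for Cldn7, against 8.73 for Ocln, 3.61 for Tjp3, 3.23 for Tjp1 and 2.62 for F11r. In order of mean CPM, Cldn4 ran through DMSO at 657, YAPi at 633, NOTCHi at 574, ARi_YAPi at 534, YAPi_NOTCHi at 437, ARi at 314, COMBO day 8 at 183, ARi_NOTCHi at 107, COMBO day 42 at 95, NEPC-1 at 64.5, NEPC-2 at 16.7 and NEPC-3 at 0.9595; neighbours whose libraries overlap are DMSO and YAPi. In order of mean CPM, Cldn3 ran through NEPC-2 at 146, NEPC-1 at 111, YAPi at 109, DMSO at 85.9, ARi_YAPi at 77.6, NEPC-3 at 67.3, NOTCHi at 51.7, YAPi_NOTCHi at 42.7, ARi at 36.8, COMBO day 8 at 21.4, COMBO day 42 at 8.04 and ARi_NOTCHi at 4.28; neighbours whose libraries overlap are NEPC-1 and YAPi, and DMSO and ARi_YAPi. The 2 neighbouring genes thus have different orders, with NEPC-1 and NEPC-2 first or second for Cldn3 and near the end for Cldn4. Within PRAD organoids both were below DMSO with NOTCHi, ARi, ARi_NOTCHi, YAPi_NOTCHi and COMBO. In the genotype table both fell with YAPi_NOTCHi and with COMBO in each genotype. The lowest group mean of Cldn1 rests on 11 counts over the 3 NEPC-3 libraries, so its span is imprecise. The groups at the extremes differ by gene: Cldn1 and Cldn4 were lowest in NEPC-3, whereas Cldn3, Cldn7, Ocln and Tjp3 were lowest with ARi_NOTCHi, and Cldn1 and Tjp1 were highest there.

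The NEPC lines were set against PRAD organoids with DMSO to ask how junction genes differ between lines that express neuroendocrine markers and PRAD organoids. No day or vehicle is given for the NEPC lines. Line, time in culture and vehicle therefore cannot be told apart in this or later comparisons with PRAD organoids. Cldn4 and Cldn1 fell in all 3 lines, Ocln rose in all 3, and Cldn7 and F11r fell by smaller amounts. Cldn4 was 65.8, 63.1 and 64.6 CPM in NEPC-1, 15.8, 18.4 and 15.99 CPM in NEPC-2 and 0.907, 1.07 and 0.897 CPM in NEPC-3, against 631, 671 and 670.1 CPM with DMSO. Every NEPC library lay below every DMSO library, and the 3 lines did not overlap each other either. The log2 fold change was -3.35 ± 0.041, adjusted p = 1.10e-44 in NEPC-1, -5.30 ± 0.048, adjusted p = 1.89e-49 in NEPC-2 and -9.42 ± 0.071, adjusted p = 1.80e-52 in NEPC-3 (± SE, edgeR). Cldn1, a barrier-forming claudin prominent in stratified epithelium, was 1.68, 1.75 and 1.99 CPM in NEPC-1, 0.5503, 0.419 and 0.4799 CPM in NEPC-2 and 0.121, 0.0316 and 0.174 CPM in NEPC-3, against 30.1, 33.2 and 30.5 CPM with DMSO. Its log2 fold changes were -4.11 ± 0.10, adjusted p = 1.81e-33 in NEPC-1, -5.999 ± 0.13, adjusted p = 9.77e-36 in NEPC-2 and -8.09 ± 0.16, adjusted p = 6.94e-37 in NEPC-3, the last from 1 to 6 counts in a library. The 2 genes had the same order of lines, NEPC-1 above NEPC-2 above NEPC-3.

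**Figure D1:**
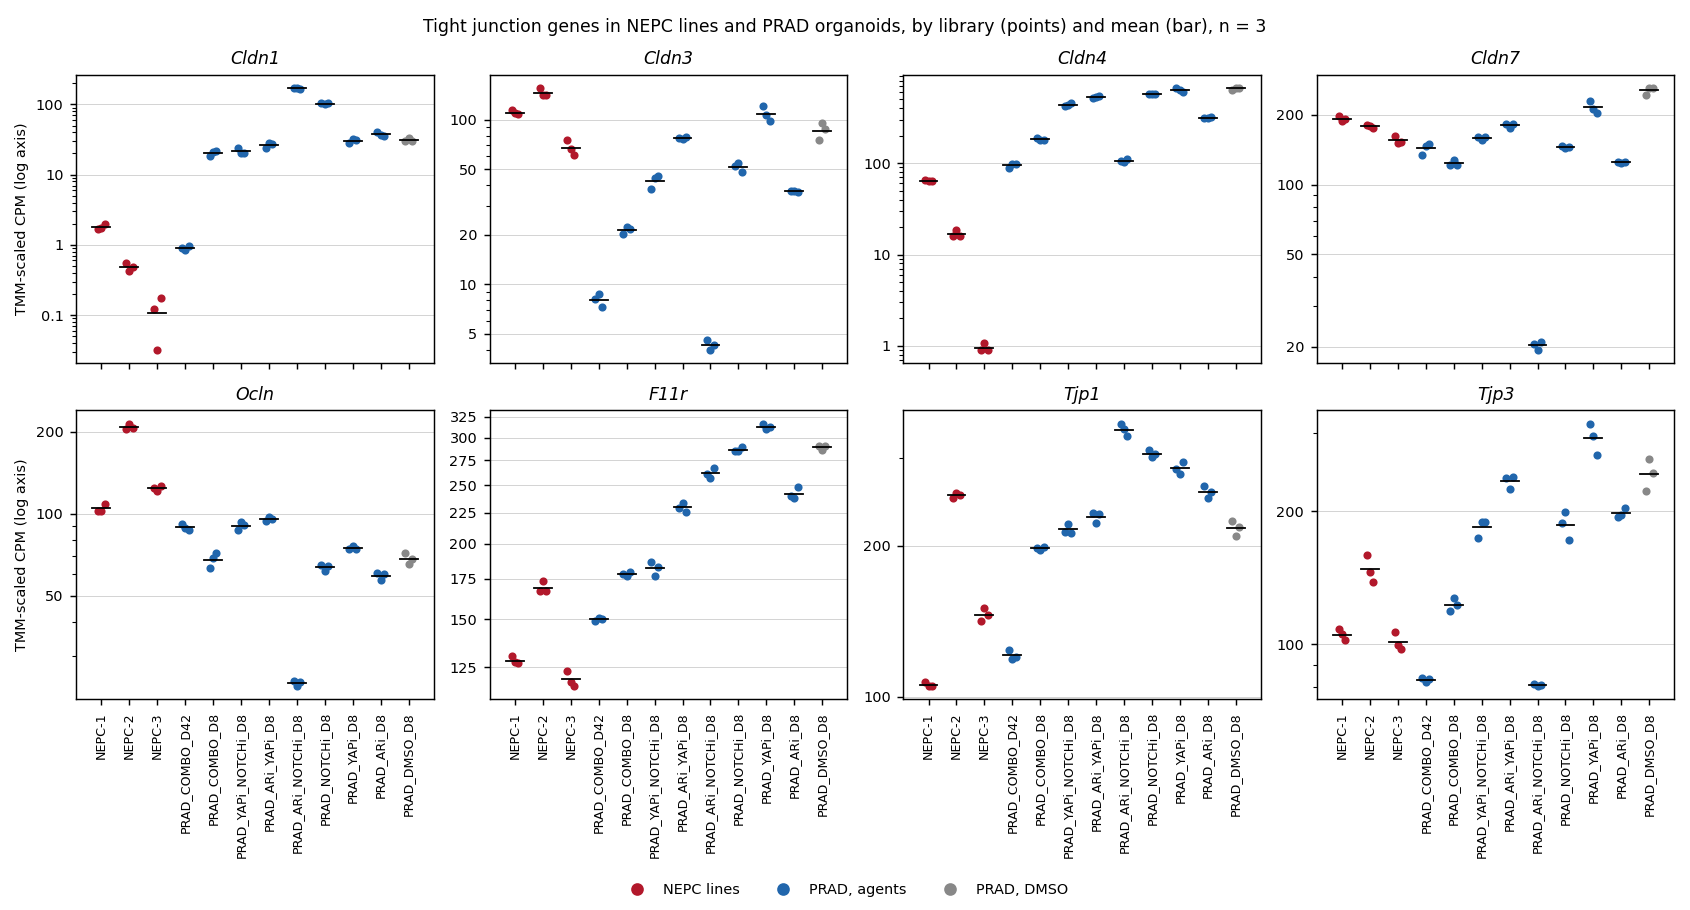
TMM-scaled CPM of 8 tight junction genes (vertical, log axis, 1 panel per gene) in the 12 groups of the PRAD and NEPC table (horizontal). Points are libraries and the short black bars are means over 3. Cldn4 runs down from NEPC-1 to NEPC-3, at means of 64.5, 16.7 and 0.9595 CPM against 657 with DMSO, while Cldn3 stays between 67.3 and 146 CPM in those lines and drops to 4.28 with ARi_NOTCHi.

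Cldn3, the neighbour of Cldn4, did not follow it. It was 115, 109 and 108 CPM in NEPC-1, 157, 141 and 140.4 CPM in NEPC-2 and 75.03, 66 and 60.9 CPM in NEPC-3, against 75.1, 94.95 and 87.6 CPM with DMSO. NEPC-1 and NEPC-2 lay above the DMSO libraries and NEPC-3 below the lowest of them by a narrow margin, with log2 fold changes of 0.37 ± 0.069, adjusted p = 5.98e-06, 0.77 ± 0.068, adjusted p = 1.07e-13 and -0.35 ± 0.070, adjusted p = 1.94e-05 in that order. Cldn7, which also binds the adhesion protein Epcam, averaged 193 ± 4.93 CPM in NEPC-1, 178 ± 3.22 CPM in NEPC-2 and 155 ± 6.01 CPM in NEPC-3, against 255 ± 10.6 CPM with DMSO (SD, n = 3), and its fold changes were -0.41 ± 0.037, -0.52 ± 0.037 and -0.72 ± 0.038. Ocln was 103, 103 and 109 CPM in NEPC-1, 205, 215 and 207 CPM in NEPC-2 and 124, 122 and 127 CPM in NEPC-3, against 71.7, 65.7 and 68.3 CPM with DMSO. These were the 3 highest Ocln groups of the table, with NEPC-2 at a log2 fold change of 1.61 ± 0.039, adjusted p = 1.35e-33. F11r, an adhesion molecule that recruits polarity proteins, averaged 128 ± 1.78 CPM, 169 ± 3.896 CPM and 119 ± 3.61 CPM in the 3 lines, against 289 ± 2.52 CPM with DMSO, with log2 fold changes of -1.17 ± 0.027, -0.77 ± 0.027 and -1.28 ± 0.027. The membrane genes thus moved apart, with Ocln above and F11r below DMSO in the same libraries. Among the scaffolds, Tjp3 fell in each line (-1.20 ± 0.053, -0.71 ± 0.052 and -1.26 ± 0.053), while Tjp1 fell in NEPC-1 and NEPC-3 (-1.04 ± 0.031 and -0.58 ± 0.030) and rose in NEPC-2 (0.21 ± 0.030, adjusted p = 1.70e-08).

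Of the 8 genes tested, 2 were higher and 6 lower in NEPC-1, against 41.6% higher and 42% lower over all genes tested in that comparison. In NEPC-2, 3 were higher and 5 lower (all genes: 41.1% higher and 42.7% lower), and in NEPC-3 1 was higher and 7 lower (all genes: 41.5% higher and 42.2% lower). Calls were so common in these comparisons that the counts say little about the junction genes. The median log2 fold change of the 8 was -1.11, -0.62 and -0.99, against -0.0090, -0.029 and -0.0089 over all genes. Taken without sign, the medians were 1.11, 0.77 and 1.06, against 0.94, 0.99 and 0.99 over all genes. The typical size of change was thus near that of all genes. Between the lines, NEPC-1 had 1.95 more Cldn4 than NEPC-2 on the log2 scale and 6.07 more than NEPC-3, and NEPC-2 had 4.12 more than NEPC-3. For NEPC-1 against NEPC-2, 3 genes were higher and 5 lower (all genes: 29.1% higher and 28.3% lower), for NEPC-1 against NEPC-3 5 higher and 2 lower (all genes: 32.4% higher and 25.7% lower), and for NEPC-2 against NEPC-3 8 higher and 0 lower (all genes: 33.5% higher and 27.5% lower). The call for Cldn7 between NEPC-1 and NEPC-2 (0.11 ± 0.037, adjusted p = 0.00943) was lost without NEPC-1 replicate 1 (0.093, adjusted p = 0.0585). The comparisons of the lines with DMSO share the DMSO libraries. Beside them, the summed level of the 7 epithelial markers was 2668 to 2737 CPM in NEPC-1, 2944 to 3018 CPM in NEPC-2 and 2125 to 2269 CPM in NEPC-3, against 11661 to 12259 CPM with DMSO. The 3 fibroblast markers listed of 6 summed to 0.708 to 0.977, 0.421 to 0.698 and 0.242 to 0.411 CPM in the 3 lines. Their sum was 82.1 to 86.8 CPM with DMSO. The part of these sums in the junction gene values was not tested.

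With COMBO, PRAD organoids were followed to day 8 and day 42. At day 8 the claudins Cldn3, Cldn4 and Cldn7 fell, and at day 42 Cldn1, Cldn3 and Cldn4 were lower again while Cldn7 and Ocln were above their day 8 levels. Cldn4 was 88.9, 99 and 97.1 CPM at day 42 and 187, 182 and 181 CPM at day 8, against 631, 671 and 670.1 CPM with DMSO, which gives log2 fold changes over DMSO of -2.79 ± 0.039 at day 42 and -1.84 ± 0.037 at day 8. Cldn3 was 8.19, 8.702 and 7.24 CPM at day 42 and 20.3, 22.2 and 21.6 CPM at day 8, against 75.1, 94.95 and 87.6 CPM with DMSO. Both groups lay below all DMSO libraries, and day 42 below day 8 (-1.41 ± 0.10, adjusted p = 6.84e-16). Cldn1 was 0.906, 0.858 and 0.963 CPM at day 42, against 18.4, 21.1 and 21.4 CPM at day 8, a log2 fold change of -4.48 ± 0.12, adjusted p = 1.54e-31. Most of its difference from DMSO (-5.10 ± 0.11 at day 42) was not yet present at day 8 (-0.62 ± 0.065). Cldn7 averaged 143 ± 8.42 CPM at day 42 and 123 ± 3.31 CPM at day 8, against 255 ± 10.6 CPM with DMSO (SD, n = 3), so that day 42 exceeded day 8 by 0.21 ± 0.038. Ocln did not pass the test at day 8 (-0.013 ± 0.041, adjusted p = 0.781) and was higher than DMSO at day 42 (0.38 ± 0.040, adjusted p = 1.97e-11). F11r fell at day 42 (-0.95 ± 0.027) and day 8 (-0.70 ± 0.026), as did Tjp3 (-1.54 ± 0.054 and -0.98 ± 0.053) and, by less, Tjp1 (-0.85 ± 0.031 and -0.13 ± 0.030). Of the members, Ocln was thus the one with more RNA at day 42 than with DMSO. Of the 8 genes, 0 were higher and 7 lower at day 8 (all genes: 41.1% higher and 38.7% lower), 1 was higher and 7 lower at day 42 against DMSO (all genes: 41.2% higher and 43.3% lower), and 2 were higher and 6 lower at day 42 against day 8 (all genes: 34.9% higher and 34.8% lower). The median log2 fold change of the 8 over DMSO was -1.25 at day 42 and -0.84 at day 8, against -0.034 and 0.026 over all genes. Taken without sign, the medians were 1.25 and 0.84, against 1.03 and 0.76 over all genes. No DMSO libraries of day 42 were analysed here, so time in culture and COMBO cannot be told apart in the comparison of day 42 with DMSO. The share of counts from mitochondrial genes was 2.47% to 2.73% at day 42 and 4.08% to 4.22% at day 8, against 1.29% to 1.38% with DMSO, and the summed epithelial markers were 3002 to 3263 CPM, 6315 to 6474 CPM and 11661 to 12259 CPM. In the same order, the 3 fibroblast markers listed of 6 summed to 1.25 to 1.65 CPM, 166 to 171 CPM and 82.1 to 86.8 CPM. Their part in these results was not tested.

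The NEPC lines and PRAD organoids at day 42 of COMBO both expressed neuroendocrine markers and little Cldn1, and they differed most in Cldn3 and Cldn4, in opposite directions. The mean of the 3 lines was above day 42 for Cldn3 by 3.67 ± 0.083, adjusted p = 4.42e-34, and below it for Cldn4 by a log2 difference of -3.23 ± 0.044, adjusted p = 5.24e-42. Cldn3 was 60.9 CPM or more in each of the 9 NEPC libraries, against 8.19, 8.702 and 7.24 CPM at day 42. For Cldn4 all 9 NEPC libraries, at 65.8 CPM or less, lay below the day 42 libraries at 88.9, 99 and 97.1 CPM. The log2 differences of the other genes were -0.96 for Cldn1, 0.29 for Cldn7, 0.65 for Ocln, -0.13 for F11r, 0.38 for Tjp1 and 0.48 for Tjp3. In this comparison 5 genes were higher and 3 lower, against 33.2% higher and 31.7% lower over all genes. For 3 genes the direction differed by line: against day 42, Cldn1 was higher in NEPC-1 and lower in NEPC-2 and NEPC-3, F11r was higher in NEPC-2 (169 CPM) and lower in NEPC-1 and NEPC-3 (128 and 119, against 149.9 at day 42), and Tjp1 was lower in NEPC-1 (106) and higher in NEPC-2 and NEPC-3 (252 and 146, against 121), by values that did not overlap.

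Of the single agents at day 8, ARi lowered the 3 claudins Cldn3, Cldn4 and Cldn7, NOTCHi raised Cldn1 and lowered Cldn3 and Cldn7, and YAPi changed all genes by less than 0.5 on the log2 scale. With ARi, Cldn3 was 37.03, 37.2 and 36.3 CPM, Cldn4 312, 312 and 318 CPM and Cldn7 126, 123 and 125 CPM, against 75.1, 94.95 and 87.6, 631, 671 and 670.1 and 243, 262 and 261 CPM with DMSO in the same order. None of these groups overlapped, and the log2 fold changes were -1.22 ± 0.075, adjusted p = 6.04e-18 for Cldn3, -1.06 ± 0.036, adjusted p = 6.08e-27 for Cldn4 and -1.03 ± 0.038, adjusted p = 1.40e-25 for Cldn7. The other 5 genes moved by -0.29 (Tjp3) to 0.26 (Cldn1), so that 2 of 8 were higher and 6 lower (all genes: 27.1% higher and 27.4% lower), with a median of -0.27 for the 8 and 0 over all genes. Without sign these medians were 0.28 and 0.32. With NOTCHi, Cldn1 was 103, 100.1 and 104 CPM, against 30.1, 33.2 and 30.5 CPM with DMSO (1.71 ± 0.059, adjusted p = 9.77e-27). Cldn3 and Cldn7 differed by -0.73 ± 0.074 and -0.82 ± 0.038, and the scaffolds went apart, with Tjp1 at 0.49 ± 0.030 and Tjp3 at -0.38 ± 0.052. Here 2 were higher and 5 lower (all genes: 26% higher and 28% lower), with medians of -0.15 and -0.0064, or 0.44 and 0.33 without sign. The call for Ocln with NOTCHi (-0.11 ± 0.042, adjusted p = 0.0282) was lost under RLE scaling (-0.053, adjusted p = 0.308), with DESeq2, and without DMSO replicate 1 (-0.073) or NOTCHi replicate 2 (-0.088). In the same arms the 3 fibroblast markers listed of 6 summed to 301 to 311 CPM with ARi and 349.8 to 366 CPM with NOTCHi, against 82.1 to 86.8 CPM with DMSO, mainly from Dcn, and the mitochondrial share was 2.22% to 2.23% and 2.41% to 2.47%, against 1.29% to 1.38%. Their part in the results was not tested.

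With YAPi the largest differences were those of Tjp1, at 285, 279 and 294 CPM against 225, 209.6 and 218 CPM with DMSO (0.39 ± 0.030, adjusted p = 2.47e-15), and Cldn3, at 120.4, 107 and 97.8 CPM against 75.1, 94.95 and 87.6 CPM (0.35 ± 0.069, adjusted p = 2.37e-05). Cldn7 fell by a smaller amount (-0.24 ± 0.037), and Cldn1 and Cldn4 overlapped their DMSO libraries and did not pass the test (-0.058 ± 0.063, adjusted p = 0.444 and -0.054 ± 0.035, adjusted p = 0.185). In all, 5 genes were higher and 1 lower (all genes: 35% higher and 26.9% lower), with a median of 0.12 for the 8 and 0.064 over all genes. Without sign these medians were 0.18 and 0.39. The call for Ocln (0.12 ± 0.040, adjusted p = 0.00832) was lost without DMSO replicate 2 (0.092, adjusted p = 0.0742). YAPi replicate 1 held 77787396 counts, against 26965177 and 28261639 in the other YAPi libraries. Its library code also has another ending than the codes of the other libraries of the table, which the labels do not explain. The 3 single agents and all pairs are set against the same DMSO libraries.

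Of the pairs of agents, ARi_NOTCHi gave the largest changes in 7 of the 8 genes, all but F11r. Cldn3, Cldn7, Cldn4, Ocln and Tjp3 fell, and Cldn1 and Tjp1 rose to their highest levels in the table. Cldn3 was 4.61, 3.98 and 4.26 CPM with ARi_NOTCHi, against 75.1, 94.95 and 87.6 CPM with DMSO (-4.32 ± 0.11, adjusted p = 1.39e-32). Cldn7 was 20.6, 19.3 and 20.98 CPM, against 243, 262 and 261 CPM with DMSO (-3.65 ± 0.048, adjusted p = 8.93e-43). In every other group of the table Cldn7 averaged 123 CPM or more. Cldn4 was 106, 104 and 109.8 CPM, against 631, 671 and 670.1 CPM with DMSO (-2.62 ± 0.039, adjusted p = 1.50e-40). Ocln was 24.3, 23.3 and 24.1 CPM, against 71.7, 65.7 and 68.3 CPM with DMSO (-1.52 ± 0.047, adjusted p = 5.18e-29), and the NEPC lines stood at the other end of the range of this gene. Cldn1 moved against the other claudins, at 173, 173 and 168 CPM with ARi_NOTCHi against 30.1, 33.2 and 30.5 CPM with DMSO (2.45 ± 0.058, adjusted p = 2.77e-33). The scaffolds also went apart, Tjp3 at 81.5, 80.5 and 80.8 CPM against 222, 262 and 243 CPM (-1.58 ± 0.055, adjusted p = 4.24e-27) and Tjp1 at 351, 342 and 331 CPM against 225, 209.6 and 218 CPM (0.65 ± 0.030, adjusted p = 6.72e-23). F11r changed little (-0.14 ± 0.026). The count was 2 higher and 6 lower of 8 (all genes: 35.1% higher and 33.3% lower), with a median of -1.55 against 0.0023 over all genes. Without sign these medians were 2.02 and 0.55.

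Other epithelial genes moved in the same arm. Krt18 and Krt8, keratins of luminal cells, averaged 38.5 and 103 CPM with ARi_NOTCHi, against 504 and 855 with DMSO, and Epcam 176 against 570.1. Krt5 averaged 12526 CPM against 6680.5, and the epithelial cadherin gene Cdh1 1123 against 1241. Of the 6 fibroblast markers 3 are listed in this table, and their sum was 1005 to 1039 CPM with ARi_NOTCHi against 82.1 to 86.8 CPM with DMSO. It came from Dcn (1019 against 84.1 CPM), with Col3a1 at 0.852 and Pdgfra at 0.05398 CPM in that arm. The mitochondrial share was 3.62% to 3.81% against 1.29% to 1.38%. The part of these in the junction gene results was not tested.

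The pairs were compared with what the single agents add up to on the log2 scale, by the interaction term of the fit. For ARi_NOTCHi, Cldn3 had a log2 fold change of -4.32 with the pair against -1.95 for the sum of the single agents, an interaction of -2.37 ± 0.14, adjusted p = 9.62e-18. The interaction was -1.80 ± 0.063, adjusted p = 5.68e-26 for Cldn7, -1.36 ± 0.053, adjusted p = 2.04e-24 for Cldn4, -1.20 ± 0.064, adjusted p = 9.81e-20 for Ocln and -0.91 ± 0.076, adjusted p = 2.33e-13 for Tjp3, each toward lower levels than the sum. Cldn1 exceeded the sum by 0.48 ± 0.081. Of the 8 genes 2 had an interaction toward higher and 5 toward lower levels (all genes: 18.7% higher and 20.6% lower). With RLE scaling the higher share of all calls was 35.7% and with DESeq2 36.1%, against 47.6% with TMM, and under both the small F11r interaction (0.13 ± 0.037) was no longer called (0.056, adjusted p = 0.243 with RLE) while that of Tjp1 (-0.079 ± 0.042, adjusted p = 0.1397) was called (-0.15, adjusted p = 0.00342 with RLE). For ARi_YAPi the claudins went the other way. Cldn4 had a log2 fold change of -0.30 with the pair against -1.12 for the sum of the single agents, an interaction of 0.82 ± 0.051, adjusted p = 3.33e-17, with 0.77 ± 0.053 for Cldn7 and 0.73 ± 0.10 for Cldn3, and 4 of 8 were toward higher and 3 toward lower levels (all genes: 19.2% higher and 17.4% lower). For YAPi_NOTCHi, Cldn1 had a log2 fold change of -0.54 with the pair against 1.65 for the sum of the single agents, an interaction of -2.19 ± 0.087, adjusted p = 1.21e-24. It was 23.8, 20.2 and 20.6 CPM with this pair and 103, 100.1 and 104 CPM with NOTCHi alone, so the higher level under NOTCHi was not seen with the pair. Here 2 genes were toward higher and 6 toward lower levels than the sum (all genes: 28.2% higher and 30.8% lower).

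**Figure D2:**
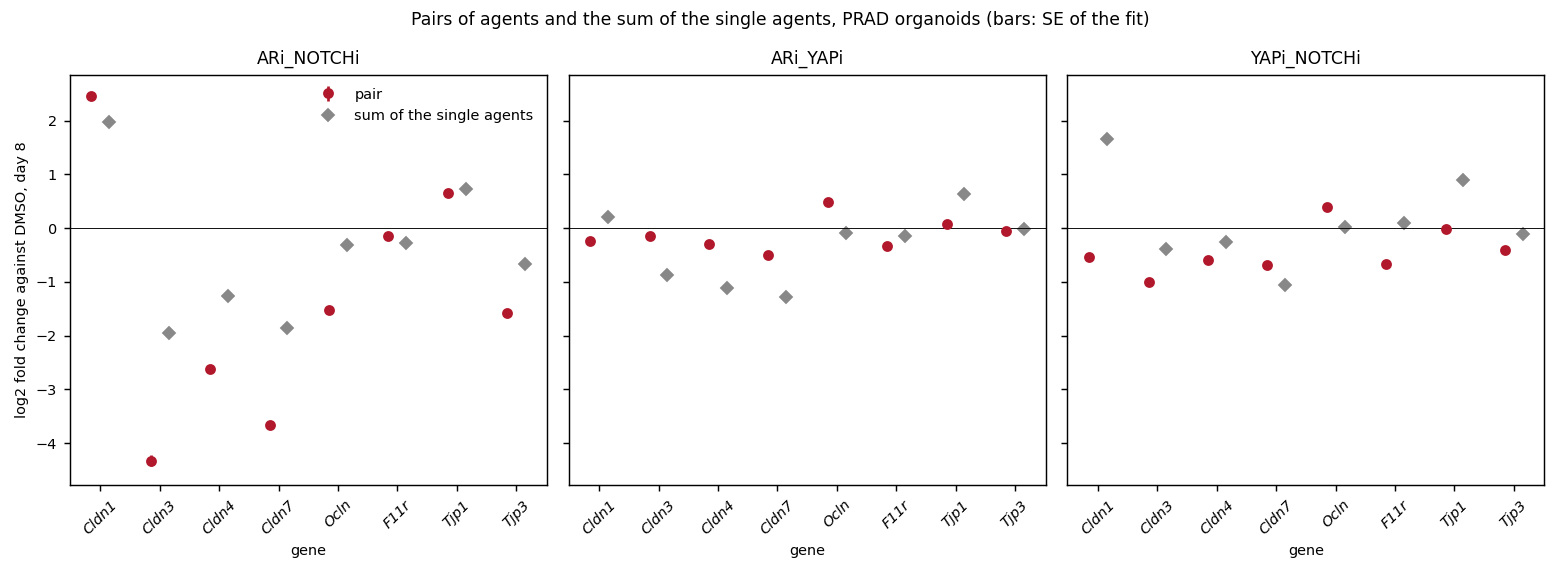
log2 fold change over DMSO at day 8 (vertical) of 8 tight junction genes (horizontal) for each pair of agents in PRAD organoids, 1 panel per pair. Red circles are the pair with the SE of the fit, and grey diamonds the sum of the log2 fold changes of its single agents. With ARi_NOTCHi the circle of Cldn3 sits at -4.32 and its diamond at -1.95, and with YAPi_NOTCHi the circle of Cldn1 sits at -0.54 and its diamond at 1.65.

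Against DMSO, YAPi_NOTCHi lowered Cldn3, Cldn7, F11r and Cldn4, with log2 fold changes of -1.01 ± 0.074, -0.69 ± 0.038, -0.67 ± 0.027 and -0.59 ± 0.036 in that order, and raised Ocln by 0.40 ± 0.040. The count was 1 higher and 6 lower (all genes: 40.2% higher and 35.1% lower), with a median of -0.56 against 0.055 over all genes. Without sign these medians were 0.56 and 0.61. Tjp1 overlapped DMSO (-0.011 ± 0.030, adjusted p = 0.741). With this pair the 8 neuroendocrine markers summed to 1989.8 to 2036 CPM, against 0.115 to 0.701 CPM with DMSO, the 7 epithelial markers to 7199 to 7660.2 CPM, against 11661 to 12259 CPM, and the mitochondrial share was 3.296% to 3.49%, against 1.29% to 1.38%. Their part in the results was not tested. With ARi_YAPi all 8 genes stayed within -0.50 (Cldn7) and 0.48 (Ocln), with 2 higher and 4 lower (all genes: 39.7% higher and 30.5% lower) and medians of -0.19 and 0.072, or 0.27 and 0.51 without sign. In that arm the call for Tjp1 (0.073 ± 0.030, adjusted p = 0.0294) rested on single libraries. It was lost without DMSO replicate 2 (0.048, adjusted p = 0.196), DMSO replicate 3 (0.075), ARi_YAPi replicate 1 (0.060) or ARi_YAPi replicate 3 (0.065), and the value was 0.11 with RLE scaling. Cldn3, not called in that arm (-0.14 ± 0.071, adjusted p = 0.0674), was called without DMSO replicate 1 (-0.23, adjusted p = 0.00439).

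COMBO at day 8 was compared with 2 of the pairs. Relative to YAPi_NOTCHi it held less Cldn4 (-1.25 ± 0.037, adjusted p = 5.65e-29) and Cldn3 (-0.997 ± 0.082, adjusted p = 8.08e-14), and less Tjp3 (-0.58 ± 0.053), Ocln (-0.41 ± 0.039) and Cldn7 (-0.36 ± 0.038), while Cldn1 (-0.080 ± 0.067, adjusted p = 0.3598) and F11r (-0.033 ± 0.027, adjusted p = 0.347) did not pass the test and overlapped between the groups. The count was 0 higher and 6 lower (all genes: 20.6% higher and 21.9% lower). The comparison with ARi_NOTCHi was added after the values were seen. Cldn7 was 122, 127 and 121 CPM with COMBO, against 20.6, 19.3 and 20.98 CPM with ARi_NOTCHi (2.61 ± 0.049). Cldn1 was 18.4, 21.1 and 21.4 CPM with COMBO, against 173, 173 and 168 CPM with ARi_NOTCHi (-3.07 ± 0.059). Cldn3 and Ocln were above ARi_NOTCHi by 2.32 ± 0.12 and 1.51 ± 0.046, and Tjp1 below it (-0.78 ± 0.030). COMBO was nearer to YAPi_NOTCHi than to ARi_NOTCHi in 7 of the 8 genes, by a narrow margin for Tjp3 (0.60 ± 0.056 from ARi_NOTCHi). The exception was Cldn4, which was 0.78 ± 0.039 from ARi_NOTCHi. All genes showed this nearness too, with a median difference without sign of 0.21 from YAPi_NOTCHi and 0.53 from ARi_NOTCHi. For the 8 genes these medians were 0.39 and 1.15. Against ARi_NOTCHi 5 genes were higher and 3 lower (all genes: 34.4% higher and 36% lower).

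The claudin make-up follows from these levels. Taking the summed CPM per kb of Cldn1, Cldn3, Cldn4 and Cldn7 as the whole, Cldn4 made up 15.95% ± 0.179 in NEPC-1, 4.26% ± 0.459 in NEPC-2 and 0.396% ± 0.0532 in NEPC-3, against 63.8% ± 0.758 in PRAD organoids with DMSO (SD, n = 3). Cldn3 held 39.5% ± 0.501, 53.5% ± 1.34 and 39.9% ± 1.84 in the 3 lines, against 11.99% ± 0.891 with DMSO, and Cldn7 44.4% ± 0.323, 42.2% ± 0.942 and 59.7% ± 1.82 against 23.1% ± 0.152. With COMBO at day 42 Cldn7 was the largest part at 55.5% ± 0.786, beside Cldn4 at 39.5% ± 0.3497, and Cldn3 held 4.83% ± 0.543, so these organoids had the low Cldn1 of the NEPC lines without their Cldn3. With ARi_NOTCHi Cldn1 held 32.8% ± 1.01, against 1.14% ± 0.0445 with DMSO. In TKOM organoids Cldn3 held 43.9% ± 0.366 in suspension and 22.2% ± 0.328 in Matrigel, and Cldn4 31.1% ± 0.107 and 59.2% ± 0.574. These shares describe RNA of 4 genes, use the union of annotated exons as length, and were not tested.

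**Figure D3:**
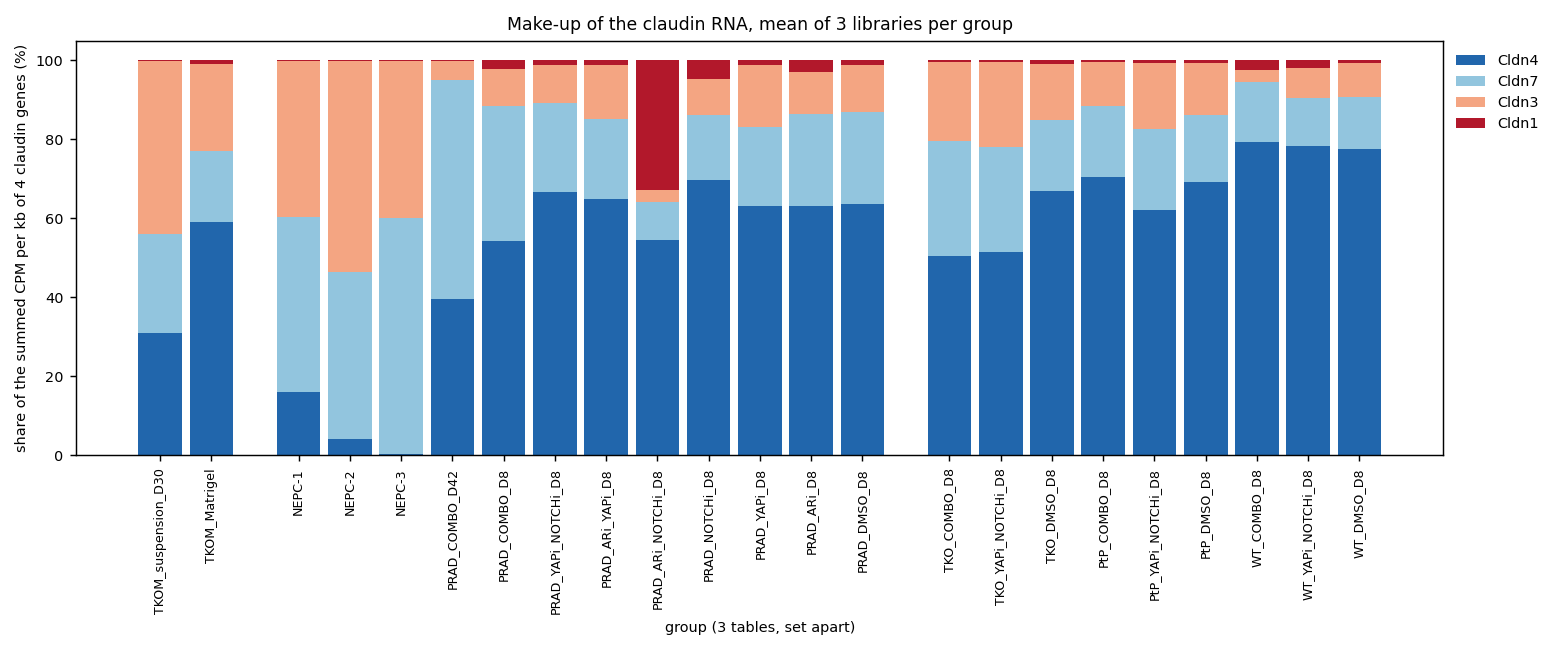
Share of the summed CPM per kb of Cldn4, Cldn7, Cldn3 and Cldn1 (vertical, %) held by each gene, as the mean of 3 libraries, in the 23 groups (horizontal, the 3 tables set apart). The Cldn4 part shrinks from NEPC-1 at 15.95% to NEPC-3 at 0.396%, against 63.8% with DMSO, and Cldn1 is a visible part with ARi_NOTCHi at 32.8%.

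TKOM organoids in suspension were compared with those in Matrigel, which asks about the matrix, although day 30 in suspension is set against Matrigel of unstated day and the time and the matrix cannot be told apart. Cldn1, Cldn4 and F11r fell in suspension, and the other 5 genes changed by at most 0.29 on the log2 scale. Cldn1 was 1.65, 2.304 and 2.09 CPM in suspension, against 23.3, 24.8 and 26.2 CPM in Matrigel (-3.63 ± 0.11, adjusted p = 3.94e-15). F11r was 58.1, 58.5 and 60.96 CPM in suspension, against 209, 206 and 199 CPM in Matrigel (-1.79 ± 0.033, adjusted p = 8.84e-18). Cldn4 was 221, 219 and 216 CPM in suspension, against 729, 728 and 679.8 CPM in Matrigel (-1.70 ± 0.030, adjusted p = 5.28e-18). None of these groups overlapped. Cldn3 and Ocln were slightly higher in suspension (0.21 ± 0.032 and 0.19 ± 0.032), and Cldn7 and Tjp1 slightly lower (-0.29 ± 0.028 and -0.27 ± 0.028). Of the 8 genes listed for TKOM 3 were higher and 5 lower (all genes: 38.3% higher and 38.9% lower), with a median of -0.28 against -0.0044 over all genes. Without sign these medians were 0.28 and 0.52. Tjp3 overlapped between the groups, and its call (0.093 ± 0.038, adjusted p = 0.0348) was lost with DESeq2 (0.087, adjusted p = 0.0513) and without Matrigel replicate 2 (0.072), Matrigel replicate 3 (0.063), suspension replicate 1 (0.061) or suspension replicate 3 (0.086). Basal keratin RNA moved along with Cldn1: Krt5 averaged 13.7 CPM in suspension and 1449 in Matrigel, and the summed epithelial markers 1786 to 1805 CPM and 4355 to 4586 CPM. Of the 8 neuroendocrine markers 4 are listed in this table and summed to 187 to 191 CPM in suspension and 0.0322 to 0.406 CPM in Matrigel. Of the endothelial and immune lists 1 gene each is listed, Pecam1 at 12.5 to 13.05 CPM in suspension and 0.239 to 0.406 CPM in Matrigel, and Cd68 at 2.93 to 3.89 CPM and 89.3 to 93.6 CPM. Of the 6 fibroblast markers 1 is listed, at 0 to 0.0271 CPM in suspension and 10.4 to 11.8 CPM in Matrigel. The part of these in the results was not tested.

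In the genotype table the groups without agents were compared first. PtP organoids held more RNA of 7 of the 8 genes than WT organoids. Tjp3 was 325, 325 and 319.8 CPM in PtP, against 74.4, 79.8 and 85.1 CPM in WT (2.02 ± 0.035, adjusted p = 1.21e-37). Ocln was 142, 135 and 138 CPM in PtP, against 46.5, 49.1 and 48.2 CPM in WT (1.53 ± 0.037, adjusted p = 3.61e-32). Cldn3 was 233, 234 and 225 CPM in PtP, against 94.4, 95.5 and 97.8 CPM in WT (1.27 ± 0.033, adjusted p = 6.35e-31). PtP and WT did not overlap for these genes, nor for Cldn1, Cldn7, Tjp1 and Cldn4, which were higher in PtP by 1.06 ± 0.056, 1.03 ± 0.024, 0.56 ± 0.030 and 0.50 ± 0.022. The count was 7 higher and 0 lower (all genes: 30.1% higher and 30.8% lower), and the median of the 8 was 1.04 against 0 over all genes. Without sign these medians were 1.04 and 0.36. F11r was not called (-0.042 ± 0.022, adjusted p = 0.1004) and was called lower with RLE scaling (-0.053, adjusted p = 0.0314), with DESeq2 and without PtP replicate 1 (-0.057). Beside these, Krt8 averaged 1268 CPM in PtP and 554 in WT, and Krt5 3938 and 9339.9. The 3 fibroblast markers listed of 6 summed to 160 to 162 CPM in PtP and 6.05 to 6.54 CPM in WT. The part of these keratins and markers in the results was not tested.

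TKO organoids differed little from PtP organoids. The largest difference was that of F11r, at 434, 427 and 434 CPM in TKO against 524, 520.3 and 497 CPM in PtP (-0.25 ± 0.022, adjusted p = 6.63e-12), followed by Cldn4 (-0.21 ± 0.022) and Ocln (-0.16 ± 0.032), with 0 genes higher and 5 lower (all genes: 13.1% higher and 13.4% lower). Cldn7 (-0.067 ± 0.022, adjusted p = 0.0207) was no longer called without PtP replicate 1 (-0.047), PtP replicate 2 (-0.066), TKO replicate 1 (-0.065) or TKO replicate 2 (-0.066). Cldn3 (-0.067 ± 0.030, adjusted p = 0.0944) was called with RLE scaling (-0.082, adjusted p = 0.0323) and with DESeq2, and Cldn1 (0.10 ± 0.047, adjusted p = 0.105) without PtP replicate 1 (0.15, adjusted p = 0.0407).

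YAPi_NOTCHi and COMBO lowered all 8 genes in TKO and in PtP organoids, whereas in WT organoids Cldn1 and Tjp3 rose. With COMBO, Cldn1 was 4.65, 5.54 and 4.43 CPM in TKO, against 51.2, 48.2 and 48.4 CPM with DMSO, and 7.68, 6.78 and 7.14 CPM in PtP, against 48.2, 44.6 and 44.2 CPM with DMSO. In WT it was 48.04, 44.5 and 48.2 CPM with COMBO and 61.1, 62.5 and 59.5 CPM with YAPi_NOTCHi, against 22.1, 21.6 and 22.3 CPM with DMSO. The groups of each genotype did not overlap, and the log2 fold changes with COMBO were -3.36 ± 0.061, adjusted p = 8.54e-38 in TKO, -2.65 ± 0.063, adjusted p = 2.65e-33 in PtP and 1.09 ± 0.055, adjusted p = 1.29e-21 in WT, and with YAPi_NOTCHi -2.49 ± 0.061, -1.86 ± 0.058 and 1.48 ± 0.053. The effect in PtP minus that in WT was -3.33 ± 0.079, adjusted p = 2.97e-32 with YAPi_NOTCHi and -3.74 ± 0.084, adjusted p = 4.51e-33 with COMBO. Tjp3 had log2 fold changes of -1.57 ± 0.032 in TKO, -1.13 ± 0.031 in PtP and 0.70 ± 0.037 in WT with YAPi_NOTCHi, and -1.75 ± 0.031, -1.34 ± 0.031 and 0.34 ± 0.038 with COMBO. WT organoids started from a Tjp3 level of 79.8 ± 5.38 CPM with DMSO, below the 94.8 ± 3.14 CPM of TKO and the 128 ± 5.998 CPM of PtP with COMBO.

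**Figure D4:**
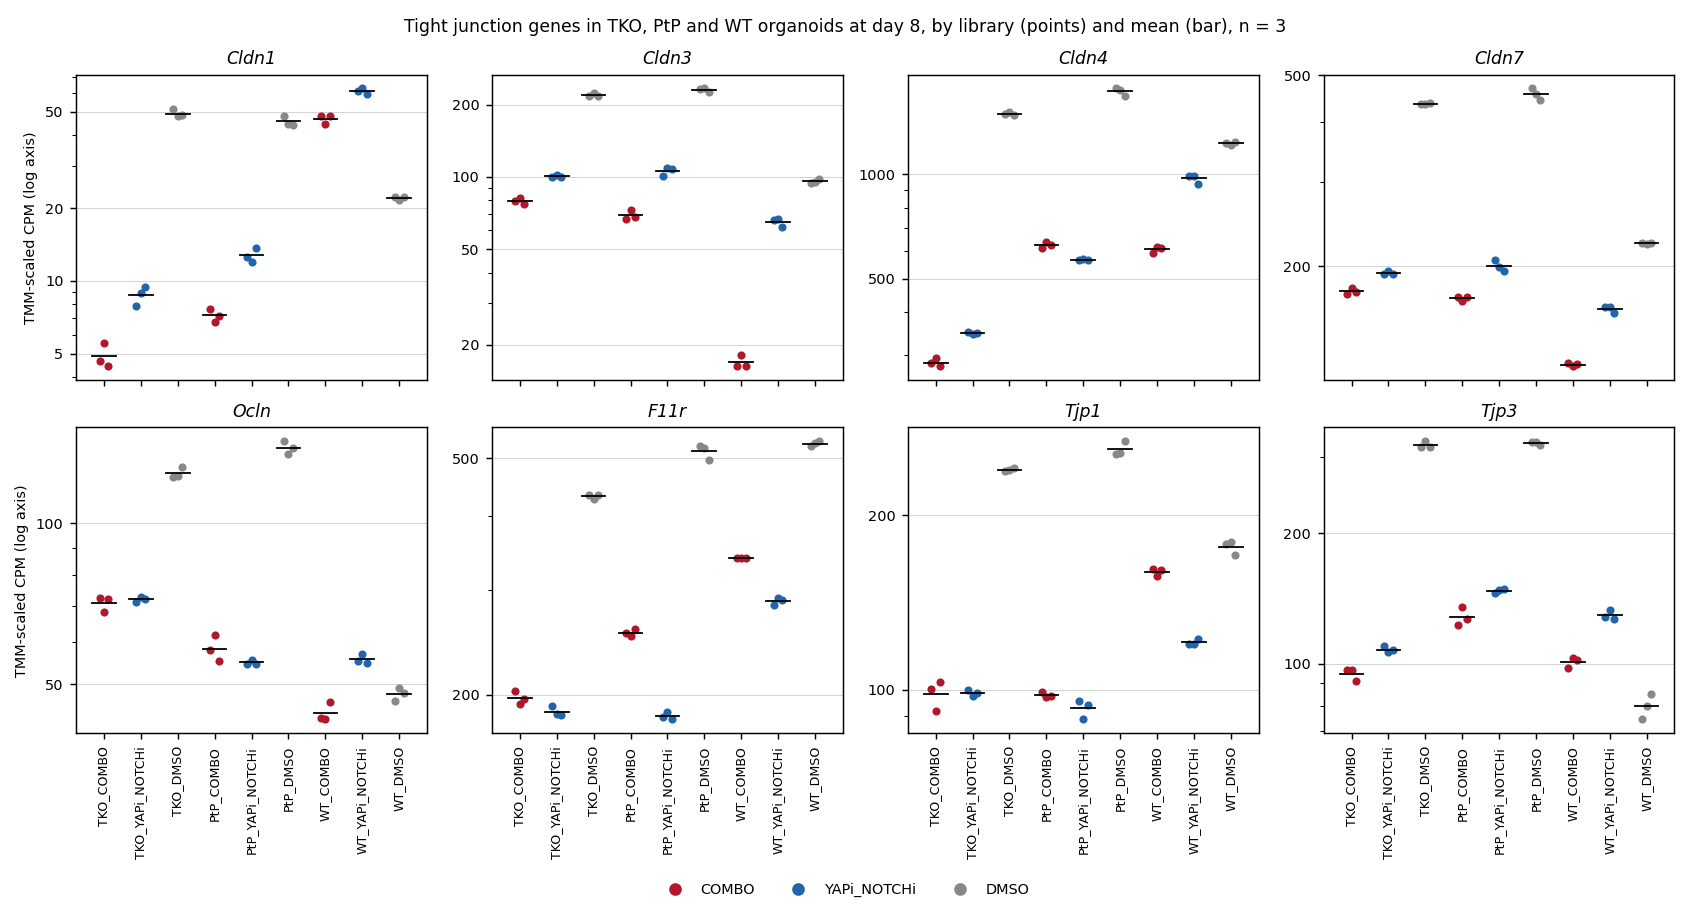
TMM-scaled CPM of 8 tight junction genes (vertical, log axis, 1 panel per gene) in TKO, PtP and WT organoids at day 8 (horizontal), each with COMBO, YAPi_NOTCHi and DMSO. Points are libraries and the short black bars are means over 3. Cldn1 with COMBO lies below DMSO in TKO (4.87 against 49.2 CPM) and PtP (7.2 against 45.7) and above it in WT (46.9 against 22.02).

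Cldn3 was the gene that fell most with COMBO in WT organoids. It was 16.3, 18.2 and 16.3 CPM with COMBO, against 66.2, 66.9 and 61.8 CPM with YAPi_NOTCHi and 94.4, 95.5 and 97.8 CPM with DMSO, so that COMBO differed from DMSO by -2.50 ± 0.047, adjusted p = 4.87e-37 and from YAPi_NOTCHi by -1.95 ± 0.047, adjusted p = 4.49e-32. In TKO and PtP organoids COMBO lowered Cldn3 by log2 fold changes of -1.47 ± 0.031 and -1.74 ± 0.033 against DMSO. Cldn4 was 285, 294 and 279 CPM with COMBO in TKO, against 1496, 1515 and 1486 CPM with DMSO (-2.39 ± 0.024, adjusted p = 4.39e-47). The log2 fold change was -1.48 ± 0.023 in PtP and -1.02 ± 0.023 in WT. Cldn7 changed with COMBO by -1.30 ± 0.023 in TKO, -1.41 ± 0.023 in PtP and -0.84 ± 0.026 in WT, and F11r by -1.12 ± 0.023, -1.01 ± 0.023 and -0.64 ± 0.023. Ocln fell with COMBO in TKO (-0.80 ± 0.032) and PtP (-1.25 ± 0.034). In WT it was higher with YAPi_NOTCHi (0.22 ± 0.041, adjusted p = 4.79e-06), and with COMBO its value was -0.12 ± 0.043, adjusted p = 0.0116, a call that was lost without WT DMSO replicate 2 (-0.079), WT DMSO replicate 3 (-0.10) or WT COMBO replicate 2 (-0.075). For Tjp1 the log2 fold changes with COMBO were -1.28 ± 0.030 in TKO, -1.41 ± 0.030 in PtP and -0.14 ± 0.031 in WT.

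With YAPi_NOTCHi the counts were 0 higher and 8 lower in TKO (all genes: 45.7% higher and 40.6% lower), 0 higher and 8 lower in PtP (all genes: 44.9% higher and 40.6% lower) and 3 higher and 5 lower in WT (all genes: 45.5% higher and 40.2% lower). With COMBO they were 0 higher and 8 lower in TKO (all genes: 46.2% higher and 41% lower), 0 higher and 8 lower in PtP (all genes: 44.8% higher and 40.2% lower) and 2 higher and 6 lower in WT (all genes: 44.9% higher and 40.8% lower). The median log2 fold change of the 8 genes with COMBO was -1.39 in TKO, -1.41 in PtP and -0.39 in WT, against 0.079, 0.071 and 0.089 over all genes. Taken without sign, the medians were 1.39, 1.41 and 0.74, against 0.81, 0.79 and 0.91 over all genes. For the YAPi_NOTCHi effect in PtP minus that in WT the count was 0 higher and 8 lower (all genes: 27% higher and 30.4% lower), and for the COMBO effect 1 higher and 7 lower (all genes: 29.4% higher and 30.4% lower), the exception being Cldn3 (0.76 ± 0.060, adjusted p = 1.24e-14). For TKO minus PtP it was 3 higher and 3 lower with YAPi_NOTCHi (all genes: 24.2% higher and 28.4% lower) and 4 higher and 4 lower with COMBO (all genes: 25.7% higher and 31.2% lower), where Ocln fell less in TKO (0.55 ± 0.049 and 0.45 ± 0.047) and Cldn4 fell more (-0.49 ± 0.032 and -0.91 ± 0.032). These differences share the PtP libraries with those of PtP minus WT. The Tjp1 difference in the COMBO effect, TKO minus PtP (0.12 ± 0.042, adjusted p = 0.0112), was lost without TKO COMBO replicate 3 (0.098, adjusted p = 0.0522). The mitochondrial share was 3.18% to 3.33% in TKO, 4.54% to 4.78% in PtP and 4.95% to 5.28% in WT with COMBO and 5.16% to 5.33%, 6.66% to 6.98% and 5.81% to 6.05% with YAPi_NOTCHi, against 1.35% to 1.41%, 1.62% to 1.65% and 0.923% to 0.927% with DMSO. The 3 fibroblast markers listed of 6 summed to 20.1 to 23.1 CPM in TKO, 50.8 to 55.7 in PtP and 183 to 190 in WT with COMBO. With YAPi_NOTCHi they summed to 40.5 to 42.8, 53.7 to 57.8 and 347 to 352 CPM in that order. With DMSO the sums were 179 to 188, 160 to 162 and 6.05 to 6.54 CPM, so they fell in TKO and PtP and rose in WT. The summed neuroendocrine markers were 2141 to 2273 CPM, 738 to 759.5 CPM and 452 to 500.1 CPM with COMBO, 1353 to 1404 CPM, 278 to 297 CPM and 211 to 223 CPM with YAPi_NOTCHi, and at most 0.811 CPM with DMSO, and the summed epithelial markers 3693 to 3783 CPM, 5975 to 6188 CPM and 7003 to 7216 CPM with COMBO and 3032 to 3066 CPM, 4525 to 4592 CPM and 4803 to 4913 CPM with YAPi_NOTCHi, against 9377 to 9423 CPM, 10192 to 10402 CPM and 17357 to 17612 CPM with DMSO. The part of these in the results was not tested.

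COMBO set against YAPi_NOTCHi within a genotype lowered Cldn1 and Cldn3 in each, with log2 fold changes of -0.87 ± 0.084 and -0.34 ± 0.033 in TKO, -0.79 ± 0.078 and -0.62 ± 0.035 in PtP and -0.38 ± 0.044 and -1.95 ± 0.047 in WT. F11r was higher with COMBO in PtP (254, 252 and 258 CPM with COMBO against 183, 187 and 182 CPM with YAPi_NOTCHi, 0.47 ± 0.024, adjusted p = 1.68e-20) and in WT (0.24 ± 0.023). The counts were 1 higher and 5 lower in TKO (all genes: 37.4% higher and 27.6% lower), 3 higher and 4 lower in PtP (all genes: 34.4% higher and 25.4% lower) and 2 higher and 6 lower in WT (all genes: 34.4% higher and 28.3% lower). Small calls depended on single libraries. F11r in TKO (0.083 ± 0.024, adjusted p = 0.00235) was lost without TKO COMBO replicate 1 (0.043). Tjp1 in PtP (0.085 ± 0.033, adjusted p = 0.0243) was lost with RLE scaling (0.075), with DESeq2 and without YAPi_NOTCHi replicate 2 (0.048) or COMBO replicate 1 (0.072), and Ocln in PtP (0.084 ± 0.037, adjusted p = 0.0507) was called without COMBO replicate 3 (0.11).

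**Figure D5:**
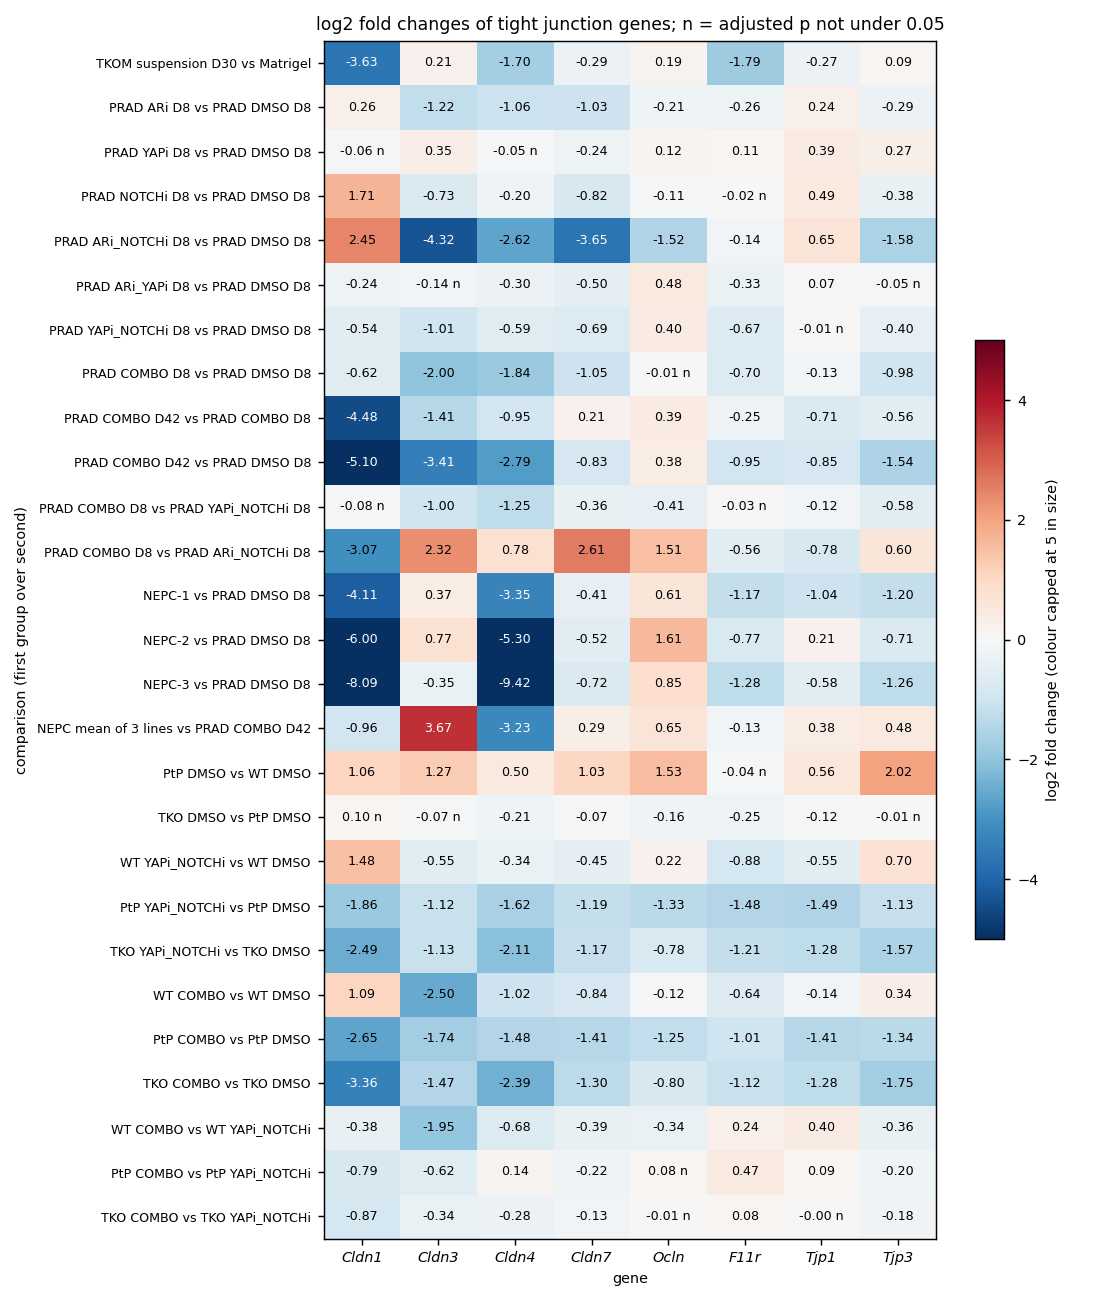
log2 fold changes (numbers and colour, capped at 5 in size for the colour) of 8 tight junction genes (horizontal) in the comparisons of the 3 tables (vertical, first group over second). An n marks values that did not pass the test. The row of ARi_NOTCHi holds 2.45 for Cldn1 beside -4.32 for Cldn3, and the NEPC-3 row -9.42 for Cldn4 beside 0.85 for Ocln.

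Other genes of the junction were taken from a list of 48 names, of which 33, 40 and 38 passed the filter on low counts in the table of TKOM, of PRAD and NEPC, and of genotypes in that order. In NEPC-3 against DMSO 12 of 40 were higher and 20 lower (all genes: 41.5% higher and 42.2% lower), in NEPC-1 16 of 40 were higher and 21 lower (all genes: 41.6% higher and 42% lower) and in NEPC-2 15 of 40 were higher and 22 lower (all genes: 41.1% higher and 42.7% lower). Amotl1, an angiomotin that binds YAP and junction scaffolds, fell in each line, with log2 fold changes of -4.99 in NEPC-1, -5.23 in NEPC-2 and -6.61 in NEPC-3, and averaged 1.73 CPM in NEPC-3 against 169 with DMSO. Bves, a membrane protein that associates with Tjp1 protein, and the scaffold gene Magi2 rose, Bves to 33.4 and Magi2 to 25.6 CPM in NEPC-3, against 0.176 and 0.213 with DMSO. These DMSO levels are near the 0.0445 to 0.154 CPM that 3 counts make in a library of that table, so fold changes from them are imprecise. With ARi_NOTCHi 16 of 40 were higher and 15 lower (all genes: 35.1% higher and 33.3% lower). Bves had the largest estimate of the named changes and rose from its low DMSO level (2.89 ± 0.37, SE). The claudin gene Cldn23 (-2.59 ± 0.11), the polarity gene Crb3 (-2.51 ± 0.087) and the tricellulin gene Marveld2 (-2.14 ± 0.073) fell. With COMBO at day 42 against DMSO 10 of 40 were higher and 23 lower (all genes: 41.2% higher and 43.3% lower), and at day 8 18 of 40 were higher and 18 lower (all genes: 41.1% higher and 38.7% lower). In TKOM suspension 11 of 33 were higher and 19 lower (all genes: 38.3% higher and 38.9% lower), with Cldn10 higher (2.95, 45.9 CPM in suspension against 5.93 in Matrigel) and Marveld1 lower (-4.28). In PtP against WT without agents 18 of 38 were higher and 11 lower (all genes: 30.1% higher and 30.8% lower), led by Ildr1, a protein of junctions where more than a pair of cells meet (3.16), and Cldn10 (-2.42). With COMBO 10 of 38 were higher and 28 lower (all genes: 46.2% higher and 41% lower) in TKO, 12 of 38 were higher and 23 lower (all genes: 44.8% higher and 40.2% lower) in PtP and 17 of 38 were higher and 17 lower (all genes: 44.9% higher and 40.8% lower) in WT. The junctional adhesion molecule gene Jam2 rose with it, to 1.299 CPM in TKO, 1.44 in PtP and 0.7998 in WT, against 0.07399, 0.0754 and 0.0869 with DMSO, which is near the 0.0284 to 0.178 CPM that 3 counts make in a library of that table. Magi2 also rose with COMBO (4.90 ± 0.18 in TKO, 3.48 ± 0.25 in PtP and 3.15 ± 0.28 in WT), as did Cldn10 in PtP (3.77 ± 0.28). Amotl2 fell (-2.55 in TKO, -3.42 in PtP and -4.03 in WT), as did Pard6b in TKO (-2.78) and WT (-2.24).

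Across the 12 group means of the PRAD and NEPC table, the genes whose log2(CPM + 1) followed each member most closely were taken from 11912 genes that span at least 1 log2 unit, with Pearson's r as a description, since the points share libraries and controls. They were Inka1 (0.99), Serpinb1b (0.99) and Gpat3 (0.99) for Cldn1, Tnfrsf11a (0.90), Id2 (0.90) and Iqgap2 (0.89) for Cldn3, Nr2f2 (0.98), Tlr4 (0.97) and Anxa1 (0.97) for Cldn4 and Sigirr (0.98), Prr15l (0.97) and Tpd52 (0.96) for Cldn7. For Ocln they were Pnpla2 (0.92), Limd2 (0.92) and Afdn (0.92), for F11r Ticam1 (0.97), Rhog (0.97) and Tor1aip2 (0.97), for Tjp1 Rreb1 (0.95), Zfpm1 (0.95) and Zfp36l2 (0.95) and for Tjp3 Zfp750 (0.96), Rnf225 (0.95) and Arg2 (0.94). None of these 24 genes is another member of the list. Among the members themselves r was 0.79 between Cldn3 and Cldn7, 0.85 between Cldn1 and F11r, -0.040 between the neighbours Cldn3 and Cldn4 and -0.81 between Cldn1 and Ocln. The value for Cldn3 and Cldn4 includes the NEPC lines, where these genes part, and r without the lines was not computed. The size of r is to be read by rank among the 11912 genes. Cldn7 ranked 35 for Cldn3, and Cldn3 ranked 65 for Cldn7. By contrast F11r ranked 2038 for Cldn1, and Cldn1 ranked 1878 for F11r, so that r was ordinary.

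Cldn6 was at the edge of detection. It has no line in the TKOM table and was not analysed there, and it did not pass the filter on low counts elsewhere, so it has no test. The PRAD and NEPC table holds 16 Cldn6 counts in all, in 8 of 36 libraries, of which NEPC-1 holds 8, with 2 to 3 in each library, and PRAD organoids with DMSO hold 0. A count of 0 allows up to 3 counts, which is 0.0445 to 0.154 CPM in these libraries and covers counting error only. In the genotype table WT organoids with DMSO hold 25 of the 44 counts, 7 to 10 in a library or 0.368, 0.472 and 0.476 CPM, and every other library at most 3.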

How the data were processed

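PolyA RNA of mouse prostate organoids was sequenced in bulk, 69 libraries in 23 groups of 3. The authors deposited 3 tables of estimated counts per gene, unnormalized, with mm10 as build per the submitters' processing notes (aligner, counter and annotation: not given in the sources used here). From 40.8% to 46.3% of the values in a table are not whole within 0.01, so they were rounded, lines with no gene name (10 to 12 a table, at most 0.01145% of a library) were left out and lines sharing a name (15 to 17 names a table) were summed. Columns were matched to samples by the library codes in the labels.

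Each table was analysed by itself with edgeR 4.0.16 in R 4.3.3 with limma 3.58.1: genes with low counts were removed with filterByExpr, which left 15733 genes in the TKOM, 18483 in the PRAD and NEPC and 18430 in the genotype table, libraries were scaled by TMM, and all groups of a table entered 1 quasi-likelihood fit (glmQLFit, glmQLFTest). Each adjusted p is Benjamini-Hochberg over all genes of the table, with 0.05 as the threshold, and the SE is the size of the log2 fold change divided by the square root of F. The scripts were tested on simulated counts.

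Alternatives were RLE scaling, DESeq2 1.42.0, no filter, a replicate block and leaving out each library. Levels per kb use the union of exons in GENCODE M21. The text names all 9 members; of the other tight junction genes those that are among the 4 largest called changes of a comparison with an average log2 CPM of 1 or more; and for each member the 3 genes of most similar group means, leaving out predicted names. Members and lists were chosen with earlier results of these data known. Intervals and floors cover counting error only.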

Additional observations from a re-analysis of the deposited data

Results flagged for a closer look

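The effect of an agent on a tight junction gene differed between genotypes in 30 cases, each tested as an interaction term of the edgeR fit with Benjamini-Hochberg adjustment over all genes of the table. For YAPi_NOTCHi, the log2 effect in PtP minus that in WT was -3.33 for Cldn1, -0.56 for Cldn3, -1.28 for Cldn4, -0.74 for Cldn7, -1.55 for Ocln, -0.94 for Tjp1, -1.84 for Tjp3 and -0.60 for F11r, with adjusted p at most 2.96e-13. For COMBO it was -3.74 for Cldn1, 0.76 for Cldn3, -0.46 for Cldn4, -0.57 for Cldn7, -1.13 for Ocln, -1.26 for Tjp1, -1.68 for Tjp3 and -0.37 for F11r, with adjusted p at most 1.73e-13. Cldn1 is the gene of the widest gap in both, since it fell in PtP and rose in WT, and Cldn3 is the one whose COMBO effect was less negative in PtP than in WT. For YAPi_NOTCHi the effect in TKO minus that in PtP was -0.63 for Cldn1, -0.49 for Cldn4, 0.55 for Ocln, 0.21 for Tjp1, -0.44 for Tjp3 and 0.28 for F11r, with adjusted p at most 8.10e-05. For COMBO it was -0.71 for Cldn1, 0.27 for Cldn3, -0.91 for Cldn4, 0.11 for Cldn7, 0.45 for Ocln, 0.12 for Tjp1, -0.42 for Tjp3 and -0.11 for F11r, with adjusted p at most 0.0112. Over all genes, PtP minus WT was called higher in 27% and lower in 30.4% for YAPi_NOTCHi, and 29.4% and 30.4% for COMBO. For TKO minus PtP the shares were 24.2% and 28.4% for YAPi_NOTCHi and 25.7% and 31.2% for COMBO. Such differences were thus common, and no cause was tested.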

How the results depend on the processing

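Every count of called members stayed within 1.5 times its value under RLE scaling, DESeq2, no filter on low counts, the replicate block and each left-out library (418 counts). With at most 9 members a count can hardly leave that range. The rule also ignores direction and which genes were called, so it says little about stability. The widest ranges were 5 to 7 for ARi_YAPi, 4 to 6 for TKO against PtP, 7 to 9 for COMBO in WT and 6 to 8 for COMBO against YAPi_NOTCHi in PtP. Of 3344 fold changes under these alternatives 41 changed their call and 26 their sign, all 26 in genes that did not pass the test. The calls are given beside the results, and the cause was not tested. With RLE scaling and DESeq2 the sign turned for Cldn4 with YAPi (0.000606 and 0.000606), F11r with NOTCHi (0.0403 and 0.0403), Tjp1 with YAPi_NOTCHi in PRAD (0.00451 and 0.00428), Ocln with COMBO at day 8 in PRAD (0.0194 and 0.0196), Tjp1 with COMBO against YAPi_NOTCHi in TKO (0.00354 and 0.00347) and the YAPi_NOTCHi effect on Cldn3 in TKO minus PtP (0.00434 and 0.00471). Over the libraries left out in turn the sign also varied for these comparisons of Tjp1 (-0.0365 to 0.0137), Ocln (-0.0539 to 0.0354), Tjp1 (-0.0352 to 0.0324) and Cldn3 (-0.0402 to 0.0129), in the same order, and for Tjp3 with ARi_YAPi (-0.112 to 0.00595) and in the ARi by YAPi interaction (-0.0964 to 0.0244), Ocln with COMBO against YAPi_NOTCHi in TKO (-0.0523 to 0.000933) and Cldn7 in the YAPi_NOTCHi effect in TKO minus PtP (-0.00283 to 0.0389). RLE scaling put the median log2 fold change of all genes at 0.118 with YAPi and 0.111 with ARi_YAPi, at 0.163, 0.1401 and 0.1399 with YAPi_NOTCHi in TKO, PtP and WT and at 0.149 and 0.114 with COMBO in TKO and PtP, and small member changes are to be read against these. Without the filter Cldn6 was tested too and called, from few counts, lower with YAPi_NOTCHi and with COMBO in WT and in PtP against WT, and higher in NEPC-1 against DMSO and against NEPC-3. Where no member was called higher or lower, an unadjusted p under 0.05 would add Cldn1 as higher in TKO against PtP, and DESeq2 added 1, F11r, as lower in PtP against WT, with no others by either in the genes that passed the filter. Same-numbered libraries did not deviate together, with 0 of 1, 66 and 36 pairs of groups in the 3 tables having all correlations above 0.1, so the numbers were not taken as a pairing. With the replicate number as a block, 295 of 296 member calls stayed on their side of the threshold, and Cldn3 in TKO against PtP passed it (-0.069, adjusted p = 0.0322). Depth limits Cldn1 in NEPC-3 and Cldn6 in all libraries, which hold few counts.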
